A study of Homo sapiens with 6 samples.

Results

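The minor spliceosome proteins are the 9 genes ZRSR2, RNPC3, SNRNP25, SNRNP35, SNRNP48, ZMAT5, ZCRB1, PDCD7 and SCNM1, chosen by their symbols in the transcript names of the deposited tables. All 9 were found, with 52 of the 234326 annotated transcripts and 9 of the 60607 genes. PLC/PRF/5 is an established human hepatocellular carcinoma cell line. The control libraries came from cells given siGL2, an irrelevant siRNA, and the knockdown libraries from cells given siSlu7, siRNAs against the splicing factor SLU7, both taken 48 h after transfection. There were 3 libraries of polyA RNA in each group, and the labels do not say whether they came from separate cultures, so the spread behind each p-value may be technical.

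Nearly all human introns are removed by the major spliceosome. A small class, the U12-type introns, carries a highly conserved 5′ splice site and branch point and is removed by the minor spliceosome, whose U11 and U12 snRNPs bind the intron as a di-snRNP. SNRNP25, SNRNP35, SNRNP48, RNPC3, ZMAT5, ZCRB1 and PDCD7 are proteins of the U11/U12 di-snRNP that the major spliceosome lacks. ZRSR2 contacts the 3′ splice site of U12-type introns, and SCNM1 is a component of the activated minor spliceosome. SLU7, the gene targeted here, acts in the second step of splicing, where it helps to choose the 3′ splice site.

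SNRNP48 and RNPC3 carry a known control element, a tandem copy of the U12-type 5′ splice site sequence, which binds U11 snRNPs and steers the splicing of their own transcripts. The element was looked for as TATCCTT on the sense strand of the GENCODE 29 transcripts (GRCh38), with both copies starting within 30 bases, and it is shown because it ties these genes to the abundance of the particle they belong to. Capitals mark the repeated motif, and the sequences read 5′ to 3′ on the plus strand of GRCh38.

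RNPC3, chr1:103553319-103553340: TATCCTTtcttgtcgTATCCTT

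SNRNP48, chr6:7599737-7599761: TATCCTTtttgcaaatgaTATCCTT

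The RNPC3 site lay in the UTR of the coding transcripts RNPC3-202 and RNPC3-208 and inside intron 14 of RNPC3-201, with 15 bases from the start of the first copy to the start of the next. The SNRNP48 site lay in intron 4 of the coding transcript SNRNP48-201 and was held by the retained-intron transcript SNRNP48-202, with 18 bases between the starts. SNRNP48-203, annotated as a target of nonsense-mediated decay, carries an 8-base exon in the same intron (chr6:7599673-7599680), which ends 57 bases before the site. Of 206694 GENCODE 29 transcripts, 13450 (6.507%) held TATCCTT at least once, and 64 (0.031%), from 49 genes, held the tandem. On the other strand, AAGGATA was held by 17284 transcripts (8.362%) and its tandem by 61 (0.03%). No other transcript of the 9 genes held the tandem.

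Depth was 7736584 to 8693977 estimated counts in control libraries against 5191452 to 6315740 after knockdown. Levels below are CPM, counts scaled to a common library size by TMM, unless TPM, which is per transcript length, is named. They average over the culture, so that fewer cells making a transcript and less of it per cell cannot be told apart. SLU7, the check of the labels, stood at 20.8, 17.1 and 18.3 CPM in control libraries against 9.24, 8.11 and 10.5 CPM in the knockdowns, which did not overlap. Its log2 fold change was -1.01 ± 0.18 (SE, n = 3 against 3; edgeR quasi-likelihood test, Benjamini-Hochberg adjusted p = 0.0139). The call was lost without knockdown replicate 1 (adjusted p = 0.0555) and without knockdown replicate 2 (adjusted p = 0.0806). In TPM the groups overlapped, at 4.70 ± 1.25 and 4.38 ± 0.28 (SD, n = 3), where the median log2(TPM + 1) difference over all genes was 0.35, and with offsets for transcript length the SLU7 log2 fold change was -0.59 (adjusted p = 0.144). Mitochondrial rRNA took 16.8 to 24.1% of the control and 29.9 to 35.3% of the knockdown counts, and 7SL RNA 15.4 to 22.9% and 7.95 to 10.5%. Across genes, the deviations of control replicate 1 from its group mean went with those of knockdown replicate 3 (r = 0.44, over 17097 genes that are not independent), and results are given also without those 2 libraries. The liver markers APOB, SERPINA1 and FGB and the epithelial KRT8 and KRT18 stood at 500.1 CPM or more in every library, while AFP was at or below 1.39 CPM. Other markers of these lists were lower, with ALB at 21.1 to 25.6, APOA1 at 63.5 to 106.7 and EPCAM at 11.1 to 20.3 CPM. HNF4A stood at 165.2 to 225.9 CPM in control libraries against 123.8 to 142.9 CPM in the knockdowns (edgeR adjusted p = 0.0859). The immune LYZ (27.6 to 43.7 CPM) and CD68 (16.8 to 27.4 CPM) were near the level of ALB. LUM, KDR and TEK had no counts, and CD3E and VWF at most 0.27 CPM. Of the tested markers 3 were called. The immune PTPRC was higher, at 0.38 to 0.51 CPM in the controls against 1.5 to 2.03 CPM in the knockdowns, as was the liver marker TTR, at 1.28 to 1.63 against 3.08 to 5.23 CPM. The fibroblast marker PDGFRB was lower, at 13.06 to 22.1 against 8.16 to 11.4 CPM (log2 fold change -0.90, edgeR adjusted p = 0.0403). The sum over 5 fibroblast markers did not overlap, at 14.1 to 24.9 against 11.5 to 13.1 CPM, but it was mostly PDGFRB. COL1A1, COL1A2 and DCN were at or below 1.69 CPM in every library and overlapped between groups. The part of these markers in the results was not tested. Summed over the 6 immune markers the level was 51.2 to 67.8 CPM in control libraries against 49.9 to 56.4 CPM in the knockdowns.

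SCNM1 rose in the knockdown, and it was the only member whose change passed the test. The other 8 members all had positive fold changes that did not pass. Over the 9 members the log2 fold changes ran from 0.16 to 0.86 with a median of 0.51, against a median of -0.01 over all 17097 tested genes, of which 8469 (49.5%) were positive. The test called 2358 genes (13.8%), 1013 of them higher (5.93%), and 1 of the 9 members. At an unadjusted p under 0.05, 4 members (RNPC3, SNRNP48, PDCD7 and SCNM1) were higher, as were 15.1% of all genes. The same 4 members lay above the controls in every knockdown library without overlap, as did 17.8% of all genes. The members were chosen with earlier results of these data known, so their shared sign is a description only.

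**Figure D1:**
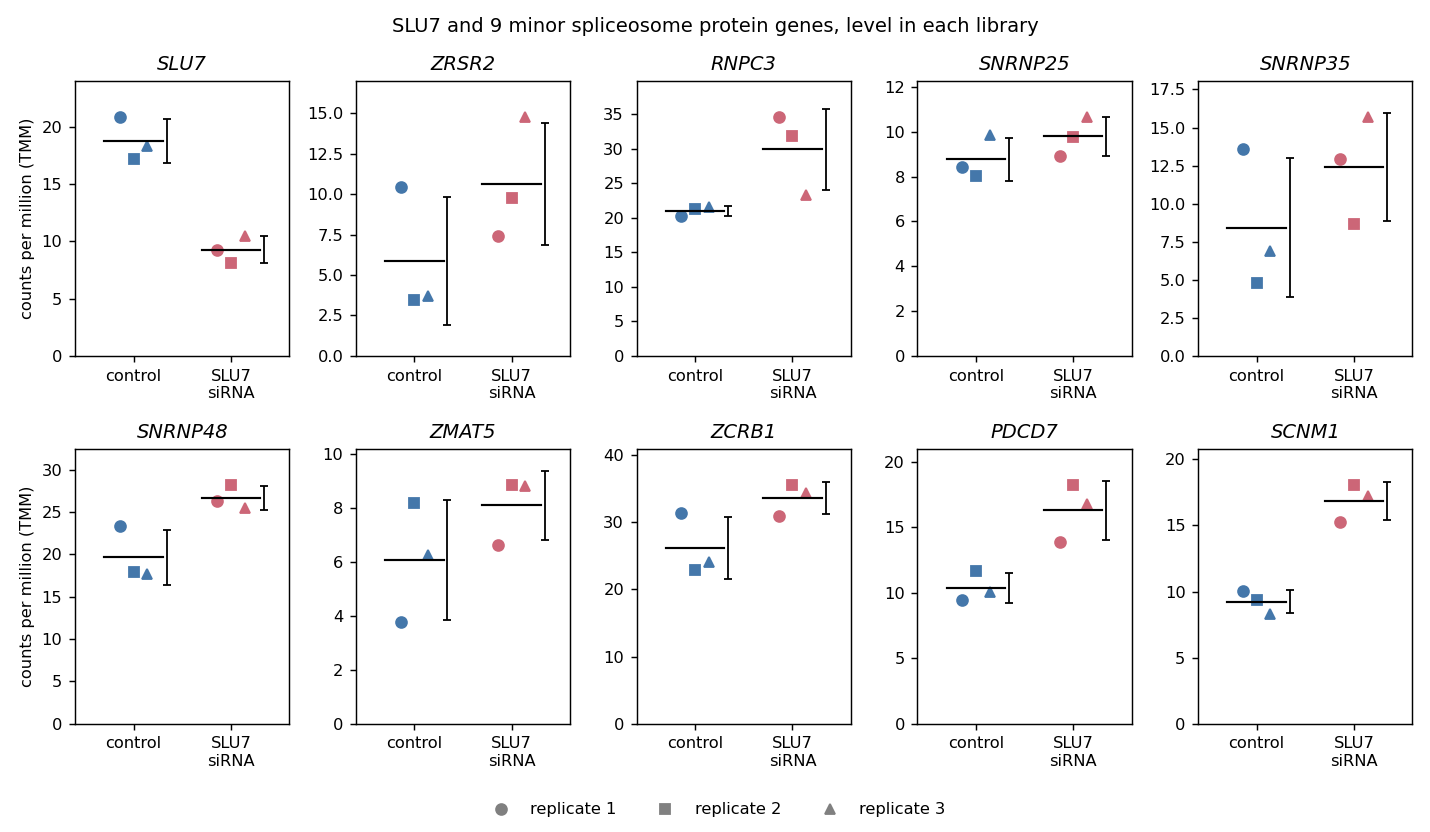
Level of SLU7 and each of the 9 minor spliceosome protein genes in every library (y axis, TMM-scaled CPM, each panel starting at 0). Symbols are replicates 1 to 3, horizontal bars are group means and error bars are SD (n = 3). The knockdown libraries lie above the controls without overlap for RNPC3, SNRNP48, PDCD7 and SCNM1.

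SCNM1, named after its action as a modifier of a sodium channel disorder in mice, stood at 10.1, 9.37 and 8.31 CPM in control libraries against 15.2, 18.1 and 17.2 CPM in the knockdowns. Each knockdown library lay above each control. The fold was 1.82, with a log2 fold change of 0.86 ± 0.18 (SE; edgeR adjusted p = 0.0194). The call held without control replicate 1 (adjusted p = 0.0102) and was lost without any other single library, at adjusted p between 0.0525 and 0.0972 and log2 fold changes between 0.77 and 0.93. It was also lost with offsets for transcript length (0.89, adjusted p = 0.0598). SCNM1 (chr1:151156664-151170297, plus strand, in GENCODE 29 on GRCh38, as for all genes here) overlaps TNFAIP8L2 on the same strand and LYSMD1, TMOD4 and VPS72 on the other, and the strand setting of the counts is not given in the sources used here, so reads of these genes may be shared.

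Among its 7 transcripts, the most abundant, the coding SCNM1-207, held 39.0, 18.9 and 33.3 estimated counts in control libraries against 18.3, 25.7 and 53.9 in the knockdowns, which overlapped. The non-coding SCNM1-204, a processed transcript, held 27.2, 23.5 and 20 against 36.6, 37.3 and 27.9. On the CPM scale SCNM1-204 did not overlap between groups, with a log2 fold change of 0.83 ± 0.33 (edgeR adjusted p = 0.295). Coding transcripts took 56.3 ± 4.05% of the gene's counts in control libraries against 55.5 ± 5.78% in the knockdowns (SD, n = 3). The shares overlapped between groups, and the retained-intron class had no annotated SCNM1 transcript.

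PDCD7, the protein that joins RNPC3 to the U11 side of the di-snRNP, stood at 9.42, 11.7 and 10.1 CPM in control libraries against 13.9, 18.3 and 16.8 CPM in the knockdowns. Each knockdown library was above each control. The log2 fold change of 0.65 ± 0.19 missed the threshold (edgeR adjusted p = 0.0532). Nearly all counts fell on PDCD7-201, its coding transcript, with 75.1, 86.8 and 79.2 counts in control libraries against 90.1, 98.3 and 88.8 in the knockdowns. PDCD7 (chr15:65117379-65133836, minus strand), like SNRNP48 (chr6:7590199-7611967, plus strand) and ZRSR2 (chrX:15790472-15823260, plus strand), overlaps no other annotated gene.

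RNPC3, which binds U12 snRNA and whose biallelic mutations cause growth hormone deficiency, stood at 20.2, 21.3 and 21.6 CPM in control libraries against 34.6, 31.9 and 23.4 CPM in the knockdowns. The controls lay close together (SD 0.73 CPM), and the third knockdown library lay just above them. Its log2 fold change was 0.51 ± 0.18 (edgeR adjusted p = 0.0917). Without control replicate 1 and knockdown replicate 3 it was 0.64 and passed (adjusted p = 0.00925). RNPC3 (chr1:103525691-103555239, plus strand) overlaps AMY2B on the same strand.

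The RNPC3 transcripts that hold the tandem element, RNPC3-202 and RNPC3-208 together, took 28.5, 20.1 and 58.8 counts in control libraries against 35.9, 51.9 and 33.8 in the knockdowns. That was 17.8, 12.6 and 34.9% of the gene's counts against 16.0, 30.2 and 26.9%, and the groups overlapped. The most abundant transcript, the short coding RNPC3-205, held 77.8, 62.5 and 63.4 counts against 97.3, 66.6 and 32.5. No tested transcript of RNPC3 had an unadjusted p under 0.05 in edgeR, and the usage test gave an adjusted p of 1 over its 6 tested transcripts. The retained-intron share was 24.4 ± 6.63% in control libraries against 19.5 ± 2.34% in the knockdowns (SD, n = 3), which overlapped.

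SNRNP48, which contacts the 5′ splice site of U12-type introns, stood at 23.4, 18.0 and 17.6 CPM in control libraries against 26.3, 28.2 and 25.4 CPM in the knockdowns. The groups did not overlap, although control replicate 1 lay near the knockdowns. The log2 fold change was 0.44 ± 0.17 (edgeR adjusted p = 0.116). It was 0.58 without control replicate 1 (adjusted p = 0.0258) and 0.62 without that library and knockdown replicate 3 (adjusted p = 0.0138).

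The coding transcript SNRNP48-201 held 93.1, 96.0 and 87.6 counts in control libraries against 95.9, 83.8 and 51.5 in the knockdowns, with a log2 fold change of 0.04 ± 0.29 in CPM. SNRNP48-202, which holds the tandem element, had 65.5, 24.0 and 46.3 counts against 49.6, 51.8 and 65.9, with a log2 fold change of 0.66 ± 0.42 (edgeR adjusted p = 0.497). SNRNP48-203, the decay target with the 8-base exon, had 28.4, 14.2 and 3.5 counts against 24.8, 16.7 and 18.6, with a log2 fold change of 0.71 ± 0.68 (adjusted p = 0.664). In share, SNRNP48-202 took 35, 17.9 and 33.7% of the gene's counts in control libraries against 29.1, 34 and 48.5% in the knockdowns. All 3 transcripts overlapped between groups, and the usage test gave an adjusted p of 1. A shift between the 3 transcripts was not detectable at these counts.

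ZCRB1, an RNA-recognition-motif protein of the di-snRNP, stood at 31.4, 22.9 and 24.2 CPM in control libraries against 30.9, 35.6 and 34.4 CPM in the knockdowns. Control replicate 1 overlapped the knockdowns. The gene's log2 fold change of 0.36 ± 0.17 did not pass (edgeR adjusted p = 0.183). It was 0.51 without control replicate 1 (adjusted p = 0.0341), and -0.007 with offsets for the mean transcript length in each library (adjusted p = 0.989). ZCRB1 (chr12:42312078-42326118, minus strand) overlaps PPHLN1 on the other strand and MIR7851 on its own.

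Among the members, ZCRB1 had the most transcripts that did not overlap between groups, all 5 of those tested out of 12, with 1 below the controls and 4 above. Of all tested transcripts, 14% lay below and 14.1% above without overlap. ZCRB1-205, the most abundant and coding, held 196.3, 92.1 and 103.0 counts in control libraries against 87.4, 56.5 and 47.2 in the knockdowns, with a log2 fold change in CPM of -0.73 ± 0.37 (edgeR adjusted p = 0.395). A longer coding transcript, ZCRB1-204, held 11, 10.0 and 11 against 23.6, 34.7 and 34. Its log2 fold change was 1.87 ± 0.40 (edgeR adjusted p = 0.118). ZCRB1-208, a retained-intron transcript, held 18.4, 23.1 and 25.8 against 32.8, 30.6 and 50, with a log2 fold change of 1.09 ± 0.40 (edgeR adjusted p = 0.262). The retained-intron transcripts ZCRB1-202 and ZCRB1-209 had log2 fold changes of 0.95 ± 0.42 and 0.81 ± 0.44. The coding transcript that dominated the controls was thus lower in CPM in each knockdown library, and the 4 others were higher. For ZCRB1-205 the groups nearly met, at 26.28, 13.43 and 14.08 CPM in control libraries against 13.39, 10.31 and 8.74 CPM. Transcript usage in ZCRB1 did not pass by the Simes method (adjusted p = 1), but passed with the gene-level F test of diffSpliceDGE (adjusted p = 0.0121) and with limma's diffSplice (adjusted p = 0.0113). The F test called 4.98% of all genes and limma's diffSplice 2.92%, and each called 1 of the 7 members it took.

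ZMAT5, a zinc finger protein of the U11 snRNP, had the fewest counts, 30, 61 and 49 in control libraries against 43, 48 and 47 after knockdown. Its level was 3.77, 8.17 and 6.26 CPM against 6.62, 8.85 and 8.79 CPM, which overlapped. The log2 fold change was 0.41 ± 0.30 (edgeR adjusted p = 0.385), and -0.038 with transcript length offsets. CABP7 overlaps ZMAT5 (chr22:29730956-29767011, minus strand) on the other strand.

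Both annotated ZMAT5 transcripts were tested. The retained-intron transcript ZMAT5-202 held 18.1, 17.1 and 18.1 counts in control libraries against 28.2, 34.2 and 35.7 in the knockdowns. It was higher in every knockdown library, with a log2 fold change of 1.21 ± 0.35 (edgeR adjusted p = 0.191). The coding ZMAT5-201 held 12, 44.5 and 30.5 counts against 15.3, 14.3 and 11, with a log2 fold change of -0.83 ± 0.57 (adjusted p = 0.533). The low first control made the coding transcript overlap between groups. ZMAT5-202 therefore took 60.1, 27.8 and 37.3% of the gene's counts in control libraries against 64.8, 70.5 and 76.4% in the knockdowns.

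**Figure D2:**
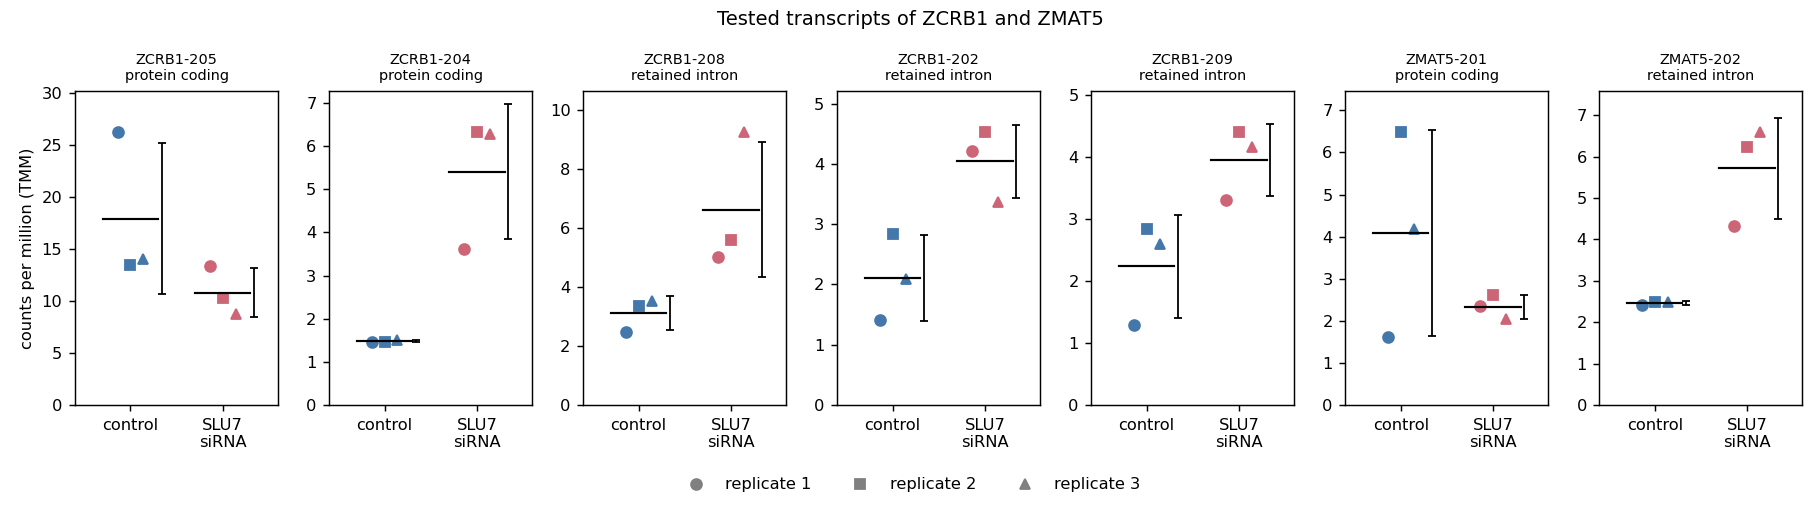
Level of each tested transcript of ZCRB1 and ZMAT5 in every library (y axis, TMM-scaled CPM, each panel starting at 0). Symbols are replicates 1 to 3, horizontal bars are group means and error bars are SD (n = 3). ZCRB1-205 is lower in the knockdowns, and ZCRB1-204, ZCRB1-208, ZCRB1-202, ZCRB1-209 and ZMAT5-202 are higher without overlap.

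Of the 52 member transcripts, 25 passed the filter on low counts, and the transcript test called none of the 25 and none of the 43128 transcripts tested in all (0%). At an unadjusted p under 0.05, edgeR had 4 member transcripts, ZCRB1-204, ZCRB1-208, ZMAT5-202 and SCNM1-204, all higher. Of all tested transcripts, 16.1% were under that p and 7.51% were so and higher. limma on voom values also called 0 of all transcripts.

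Counts were also summed per gene into coding, retained-intron, decay and other transcripts. The retained-intron sum of ZMAT5 had a log2 fold change of 1.27 (edgeR adjusted p = 0.0614), and that of ZCRB1, at 38.5, 61.9 and 60 counts in control libraries against 83.3, 80.7 and 90.6 in the knockdowns, one of 1.05 (edgeR adjusted p = 0.0626). Neither passed, where 5.3% of all class sums did. Of 4779 retained-intron sums, 253 passed in the same direction (5.29%), with 21.6% at an unadjusted p under 0.05. The retained-intron share of ZCRB1 was 15.4, 36.0 and 31.6% in control libraries against 41.9, 42.1 and 49.1% in the knockdowns. For ZCRB1 and ZMAT5 the knockdown shares lay above the controls without overlap, as they did in 29.6% of the 4401 genes with such a share, while RNPC3 and SNRNP48 overlapped. A test of class usage called none of the 6 members it could take, by the Simes method or by the F test, and of 6828 genes 154 by the Simes method (2.26%) and 604 by the F test (8.85%). The lowest member values by the Simes method of diffSpliceDGE were for ZMAT5 (adjusted p = 0.475) and ZCRB1 (adjusted p = 0.595). By its F test they were nearer the threshold, at adjusted p of 0.0639 for ZMAT5 and 0.104 for ZCRB1. No member had an unadjusted Simes p under 0.05, where 13.4% of all genes did. Transcript usage likewise called none of 7 members by the Simes method, and 257 of 8869 genes (2.9%).

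Retained-intron transcripts were a larger share after knockdown over the whole transcriptome as well. Summed over the 9 members, the share was 14.9, 19.2 and 21.0% in control libraries against 21.5, 22.3 and 25.2% in the knockdowns. Over all genes with a coding transcript it was 10.4, 9.67 and 10.1% against 13.6, 13.3 and 13.4%. The groups did not overlap in either sum, and the difference between the sums was not tested.

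**Figure D3:**
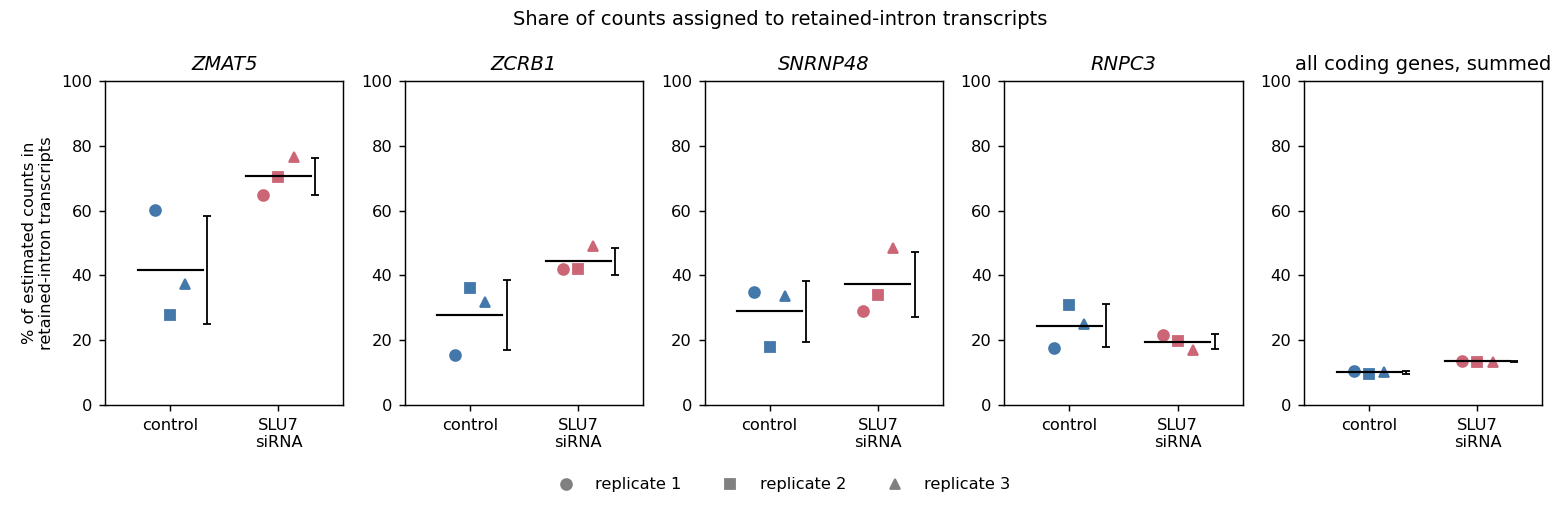
Share of a gene's estimated counts assigned to retained-intron transcripts (y axis, percent, 0 to 100) in each library for ZMAT5, ZCRB1, SNRNP48 and RNPC3, and for all genes with a coding transcript summed. Symbols are replicates 1 to 3, bars are group means and error bars SD (n = 3). ZMAT5 and ZCRB1 lie above the controls without overlap, and the sum over all coding genes does so by a smaller number of percentage points.

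ZRSR2, a relative of U2AF1 that is recurrently mutated in myelodysplastic syndromes, had the largest standard error of the members. It stood at 10.4, 3.48 and 3.71 CPM in control libraries against 7.39, 9.77 and 14.8 CPM in the knockdowns. The first control lay among the knockdowns and the other two controls below all of them. Its log2 fold change was 0.85 ± 0.44 (edgeR adjusted p = 0.224). Without control replicate 1 it was 1.55 and passed (adjusted p = 0.0103), and without control replicate 1 and knockdown replicate 3 it was 1.25 (adjusted p = 0.00883). The short processed transcript ZRSR2-203 held 0 counts in each control and 3.7, 5.5 and 3.7 in the knockdowns, too few to be tested. Pseudogene copies of ZRSR2 and of ZCRB1 were among the quantified genes, so counts of both may be split with them.

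SNRNP35, the counterpart of the U1 snRNP protein SNRNP70 in the U11 snRNP, was likewise highest in control replicate 1 among the controls and in knockdown replicate 3 among the knockdowns. It stood at 13.6, 4.82 and 6.90 CPM in control libraries against 12.9, 8.66 and 15.7 CPM in the knockdowns, which overlapped. The log2 fold change was 0.56 ± 0.38 (edgeR adjusted p = 0.346), and 1.08 without control replicate 1 (adjusted p = 0.027). RILPL1 overlaps SNRNP35 (chr12:123457641-123473154, plus strand) on the other strand.

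SNRNP25, a protein of the U11 snRNP, had the smallest fold change of the 9. It stood at 8.41, 8.04 and 9.84 CPM in control libraries against 8.93, 9.77 and 10.7 CPM in the knockdowns, with a log2 fold change of 0.16 ± 0.19 (edgeR adjusted p = 0.62). The split of its counts between coding transcripts of nearly the same length differed from library to library. SNRNP25-202 held 28.8, 0 and 0 counts in control libraries against 25.1, 30.9 and 22.4 in the knockdowns. SNRNP25-201, which is 1087 bases long where SNRNP25-202 is 1085, held 2.5, 34.4 and 41.1 against 2.4, 3.4 and 2.2. Between these 2, SNRNP25-202 had the higher count in the knockdowns and in the first control, and SNRNP25-201 in the other two controls. The shorter coding transcript SNRNP25-204 held 30.8, 18.2 and 8.4 counts against 22.9, 16 and 9.6, which overlapped. Usage in SNRNP25 passed the Simes test without control replicate 1 (diffSpliceDGE adjusted p = 0.00854), where 8.7% of all genes passed, and had an adjusted p of 1 with all 6 libraries. POLR3K overlaps SNRNP25 (chr16:53010-57669, plus strand) on the other strand.

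**Figure D4:**
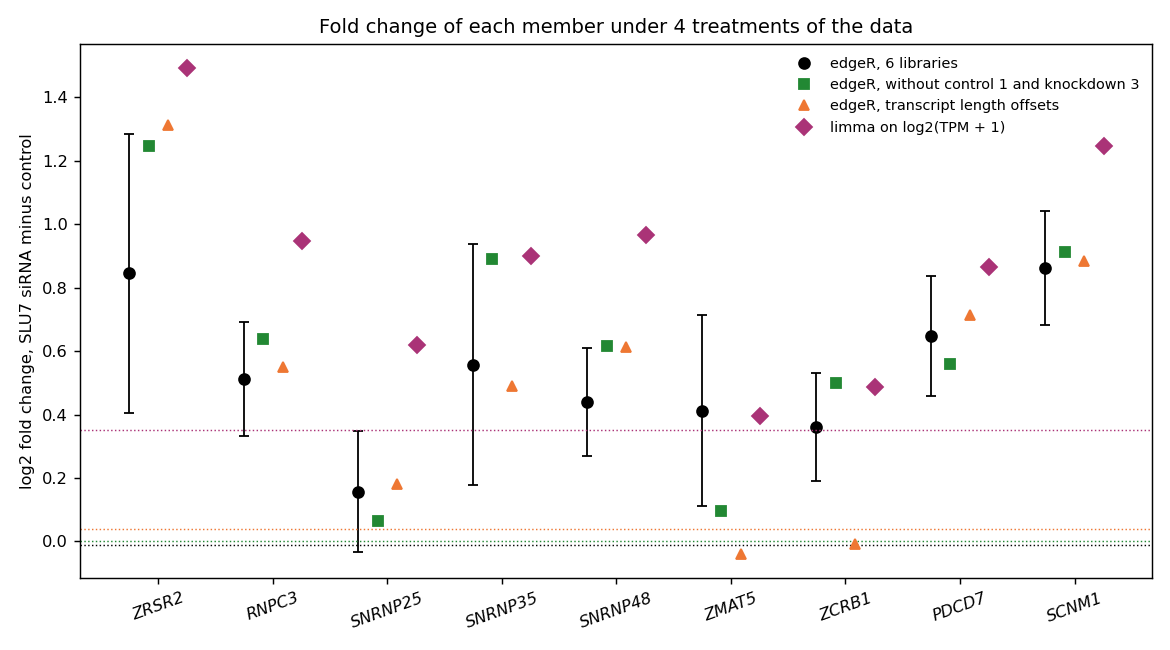
Log2 fold change of each member (y axis, knockdown minus control) from edgeR over all 6 libraries (circles, error bars SE), from edgeR without control replicate 1 and knockdown replicate 3 (squares), from edgeR with transcript length offsets (triangles) and from limma on log2(TPM + 1) (diamonds). Dotted lines are the medians over all tested genes in the same colours, between -0.01 and 0.35. ZCRB1 and ZMAT5 fall to -0.007 and -0.038 with length offsets.

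Without control replicate 1, 5 of the 9 members were called higher, ZRSR2, SNRNP35, SNRNP48, ZCRB1 and SCNM1, where 25.6% of all genes were called and 12% were called higher. Without control replicate 1 and knockdown replicate 3, 6 of the 9 members were called higher, with a median log2 fold change of 0.62. They were ZRSR2, RNPC3, SNRNP35, SNRNP48, ZCRB1 and SCNM1. In that fit 29.8% of all tested genes were called, and 14.1% were called higher. PDCD7, at 0.56, had an adjusted p of 0.0694, and SNRNP25 and ZMAT5 had log2 fold changes of 0.06 and 0.10. Removing mitochondrial and structural RNA genes before scaling left the median at 0.51, and 2 members, PDCD7 (adjusted p = 0.0469) and SCNM1, passed, where 15.8% of all genes were called and 6.74% were called higher. On the log2(TPM + 1) scale, where low genes are understated, limma called 5 members higher (ZRSR2, RNPC3, SNRNP48, PDCD7 and SCNM1), with a median of 0.90 where the median of all genes was 0.35. That fit called 18.3% of all genes, 17.4% higher.

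Levels of different genes were compared per length, in TPM. In the controls the order ran from ZCRB1 (11.5 ± 4.33), RNPC3 (8.96 ± 0.96) and SNRNP25 (8.41 ± 2.06) through SCNM1 (5.54 ± 0.92), SNRNP35 (5.05 ± 2.62) and SNRNP48 (3.66 ± 1.49) to ZMAT5 (2.39 ± 0.95), ZRSR2 (2.28 ± 1.41) and PDCD7 (1.68 ± 0.15; mean TPM ± SD, n = 3). The libraries of every pair of neighbours in this order overlapped. In the knockdowns the order was RNPC3 (18.5 ± 4.52), ZCRB1 (15.8 ± 0.75), SCNM1 (14.4 ± 1.2), SNRNP25 (13.4 ± 3.08), SNRNP35 (9.56 ± 1.58), ZRSR2 (7.93 ± 2.40), SNRNP48 (7.83 ± 0.27), PDCD7 (3.9 ± 0.57) and ZMAT5 (3.33 ± 0.29). Neighbours overlapped here too, except SNRNP25 above SNRNP35 and SNRNP48 above PDCD7.

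The genes whose libraries were most like those of SCNM1, by the root mean square difference of centred log2 CPM over the 6 libraries among 7943 coding genes, were NBPF12 (0.0723), RRP8 (0.0814) and SRCAP (0.0864). Their log2 fold changes of 0.75, 0.81 and 0.75 follow from this choice, which used the same 6 libraries, and are a description only. NBPF12 belongs to a family of near-identical copies and its counts are uncertain.

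Other factors of the minor spliceosome were mixed, in the fit that called 5.93% of all tested genes higher. Of 10 listed, 9 were tested and 2 rose, namely TXNL4B, at 4.14, 5.36 and 5.62 CPM in control libraries against 7.54, 13.1 and 11 CPM in the knockdowns (log2 fold change 1.06, edgeR adjusted p = 0.0327), and RBM48 (0.75, adjusted p = 0.0465). RBM48 lost its call without any single library and TXNL4B without any but control replicate 1. CENATAC (0.49) and RBM41 (0.59) had adjusted p of 0.0691 and 0.0586, while CRIPT had a log2 fold change of -0.82 (adjusted p = 0.0644). The snRNAs themselves ranged from 0 to 37.8 CPM for RNU11, 0 to 24.8 for RNU12 and 1.63 to 26.4 for RNU4ATAC, in polyA RNA that should hold little of them, and RNU6ATAC was too low to be tested. The median of the list was -0.36 with these 3 snRNAs and 0.54 over the 6 protein factors when structural and mitochondrial RNA genes were removed.

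Proteins that the minor spliceosome shares with the major one showed a few calls, all higher. Over all tested genes, the same fit called 5.93% higher. Fold changes went both ways, positive in 4 of 7 SF3b, 5 of 7 Sm and 9 of 13 U5 and tri-snRNP genes. Of all tested genes 49.5% were positive. PRPF8, of the U5 list, lay below the controls without overlap (log2 fold change -0.41, edgeR adjusted p = 0.127). In SF3b, which holds the branch point, 2 of 7 rose, PHF5A (log2 fold change 0.89, edgeR adjusted p = 0.0153) and SF3B4 (0.88, adjusted p = 0.0246), and the median was 0.21. Among the Sm proteins, the ring that cores every spliceosomal snRNP except those of U6 type, 1 of 7 rose, SNRPE (1.23, adjusted p = 0.0296), and the median was 0.45. In the U5 and tri-snRNP proteins 3 of 13 rose, PRPF4 (1.53, adjusted p = 0.00923), PRPF3 (1.45, adjusted p = 0.0109) and SART3 (0.94, adjusted p = 0.0357), with a median of 0.09. Of the U1, U2 and U2AF proteins that serve only the major spliceosome, 3 of 10 rose, SF3A2 (0.88, adjusted p = 0.0159), SF3A1 (0.84, adjusted p = 0.0258) and U2AF1 (1.44, adjusted p = 0.0187), with a median of 0.26. U2AF1 has a near-identical copy and is uncertain. The lists were not tested against each other, and the order of their medians changed between fits. The members' median lay above that of the Sm proteins here (0.51 and 0.45), but below it without control replicate 1 (0.58 and 0.78), with transcript length offsets (0.55 and 0.67) and on the log2(TPM + 1) scale (0.90 and 1.11).

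Of 14 genes known to contain U12-type introns, 1 rose and 13 did not pass, with a median of -0.13. The 1 call is near the share of all tested genes called higher (5.93%). NOP2, which modifies ribosomal RNA, was the gene that rose, from 38.2, 22.6 and 29.4 CPM to 64.8, 73.4 and 74.8 CPM (log2 fold change 1.24, edgeR adjusted p = 0.0103). STK11, at a log2 fold change of -0.23, and TRAPPC2, at 0.725 (edgeR adjusted p = 0.0537), did not pass. Of the 14, 5 had positive fold changes. Without overlap, 3 lay above the controls and 2 below, as did 3042 and 3217 of all 17097 tested genes. Of the 12 calls in these lists, when 1 library was left out, those of PRPF4, PRPF3 and NOP2 were lost only without knockdown replicate 2, where edgeR called no gene in the whole table, and the other 9 also without at least 1 more library.

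**Figure D5:**
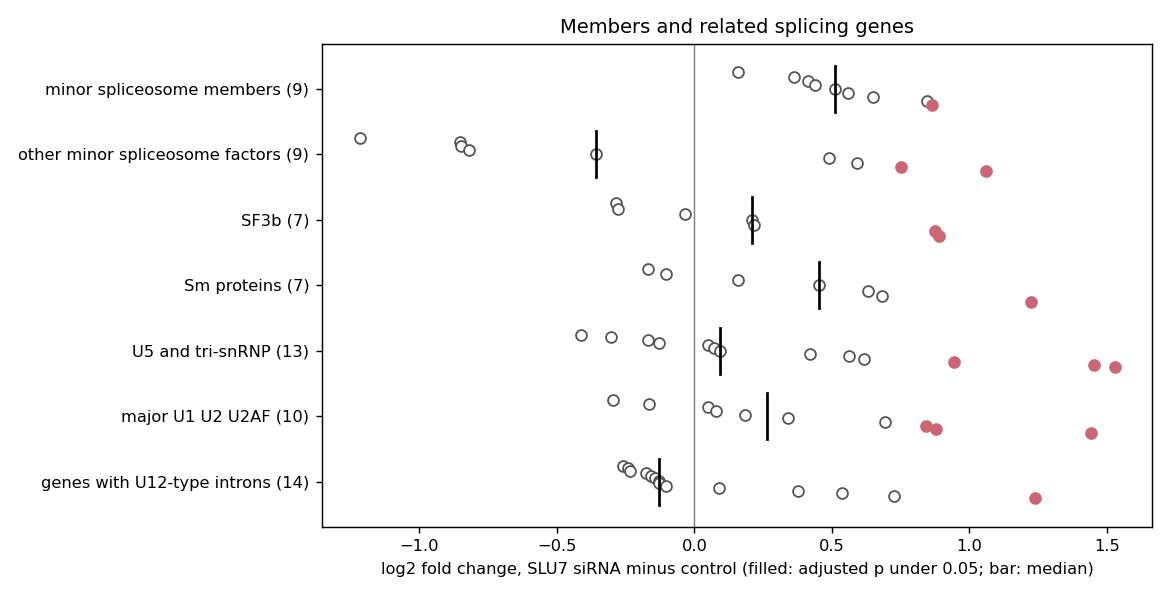
Log2 fold change (x axis, knockdown minus control, edgeR over 6 libraries) of the 9 members and of the tested genes of 6 related lists, 1 circle per gene. Filled circles have an adjusted p under 0.05 and vertical bars are list medians. All 9 members lie to the right of 0, with 1 filled.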

How the data were processed

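PolyA RNA of 3 control and 3 knockdown libraries was measured by sequencing. The submitters' processing notes name kallisto 0.46.1, sleuth 0.30.0, Trimmomatic 0.38, FastQC 0.11.8 and the build GRCh38, with no role or order. The strand setting, like the annotation release, is not given in the sources used here. The authors deposited, per the file headers, estimated counts per transcript, which are neither normalized nor whole, and TPM, with transcript lengths and effective lengths in bases.

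Each table held 234485 transcripts, and 159 records of chromosome Y pseudoautosomal copies were merged with X. Estimated counts were rounded per transcript and summed per gene. Genes, transcripts and transcript classes were tested in edgeR 4.0.16 (R 4.3.3) by glmQLFTest with TMM and filterByExpr (10 counts in a library, 15 in all) and Benjamini-Hochberg adjustment over all rows, threshold 0.05. Usage was tested with diffSpliceDGE by the Simes method. DESeq2 1.42.0 and limma 3.58.1 were alternatives, with offsets for transcript length and for GC content and length (mgcv 1.9.3; 97.4% of genes had values), other scalings and filters, and omitted libraries. No library repeated another: within groups, counts differed by 8.2 to 63.7 chi-square units per degree of freedom.

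The scripts were tested on simulated counts. Coordinates and sequences came from GENCODE 29 (GRCh38). No genome was used, so that the U12-type intron genes are a short list from background knowledge. The members and lists were chosen with earlier results of these data known. Named genes were all members, SLU7, up to 4 called genes per list by p (2 if none passed), the most abundant transcript of each member, and the 3 genes most like SCNM1; other transcripts and genes were named after their values were seen.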

Additional observations from a re-analysis of the deposited data

How the results depend on the processing

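With 2358 genes called in all (1013 higher, 1345 lower) and 1 of the 9 members, leaving out 1 library gave 0 to 4467 genes and 0 to 5 members. Without both control replicate 1 and knockdown replicate 3 it was 5234 genes and 6 members. Transcript length offsets gave 780 genes (416 higher) and 0 members, limma on log2(TPM + 1) gave 3129 genes (2979 higher) and 5 members, and removing structural and mitochondrial RNA gave 2639 genes and 2 members. Whether the numbers in the labels pair the libraries is not known. Deviations of same-numbered libraries from their group means correlated at -0.41, 0.11 and -0.37 across genes. None of the controls correlated best with the knockdown library of its own number. With 3 libraries per group the deviations are bound to each other, so these correlations cannot decide whether the numbers are pairs. With the replicate number as a block, 0 genes and 0 members were called in edgeR. In that fit SCNM1 had a log2 fold change of 0.86 (adjusted p = 0.0849), and SLU7 had an adjusted p of 0.0653. Changed transcript usage was called in 0 members by the Simes method, in 1 without control replicate 1 and in 1 without that library and knockdown replicate 3 (SNRNP25 both times), and in 1 with the gene-level F test and 1 with limma diffSplice (ZCRB1 both times); over the omissions of 1 library it ranged from 0 to 1. Gene-level counts of all genes and of members called stayed within 1.5 times of the first values with DESeq2, RLE size factors and either filter. They did so also with rounding after summing and with GC content and length offsets. That last pair, and limma voom for transcripts (0 members), were chosen after the data were seen. Member transcripts called stayed at 0 in all 12 alternatives. Over all genes, the number with changed transcript class usage left that range in 9 alternatives and stayed in 3. The number with changed transcript usage left it in 5 and stayed in 8. With no filter, edgeR called 94 of all transcripts and 0 of the members'.

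Of 153 refits of member fold changes over 17 settings, 130 kept their direction and side of the threshold, 14 newly passed, 7 no longer passed and 2 turned, ZCRB1 (-0.007) and ZMAT5 (-0.038) with transcript length offsets. Among transcripts, SNRNP48-201 turned with no filter (-0.002). Leaving out libraries moved it between -0.085 and 0.226, RNPC3-202 between -0.423 and 1.254, RNPC3-205 between -0.038 and 0.609 and SCNM1-207 between -0.157 and 0.811. The cause was not tested. Members had 26 to 250 counts per library, and counts of their transcripts rest on the authors' split of shared reads.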

Other observations

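U12-type introns were looked for among those that GENCODE 29 removes in one transcript of a gene and keeps inside another, by the start ATATCCTT or GTATCCTT and a branch point of CCTTAAC or CCTTGAC in the last 50 bases. This search was chosen after the data were seen, and it finds only introns with an annotated retaining transcript. It gave introns in 16 genes, of which 13 had a mean of at least 30 counts. For these the share of counts on transcripts holding the intron was higher in the knockdown in 10, with a median difference of 5.2 percentage points, and above the controls without overlap in 5 (38.462%). Over all 10942 such introns the share was higher in 62.274%, with a median difference of 1.58 points, and above without overlap in 20.791%. The introns share libraries and depth, and no test was made between them.

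DDB1, which recognises damaged DNA and serves as an adaptor of ubiquitin ligases, had 10.1, 13.0 and 15.6% of these counts on the holding transcript in control libraries and 44.1, 23.0 and 26.7% after knockdown (chr11:61300933-61302256). The holding transcript itself had 21.2, 27.3 and 24.6 counts against 33.9, 25.8 and 28.4. The removing ones had 188.8, 182.4 and 133.0 against 43.1, 86.5 and 78.0. These counts are not scaled for depth, which was lower after knockdown, and the part of each kind in the share was not tested. NAA60, an acetyltransferase of the Golgi, had 60.09, 40.4 and 39.5% against 67.4, 75.1 and 60.13%, so that the groups nearly met. ALG3 was also close, with a highest control of 13.68% and a lowest knockdown of 14.19%. SELENOM, likewise without overlap, had at most 4.6 counts on its holding transcript. IFT122, a protein of intraflagellar transport, had 9.30, 11.5 and 9.95% against 15.1, 15.8 and 18.9%. DCTN3, a dynactin subunit, went the other way, with 5.15, 3.76 and 4.20% against 0.96, 3 and 2.45%. In NOP2, the U12-type intron gene with the higher level, the shares overlapped, at 0.75, 0 and 3.66% against 3.04, 6.16 and 1.57%.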
